A study of Mus musculus with 36 samples.

Results

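This experiment compared quadriceps muscle of sarcoglycan-deficient mice at 2.5 weeks of age with the same muscle at 1 week. It comprises the 4 arrays on which Cy5-labelled RNA of a 2.5-week mouse was hybridised against Cy3-labelled RNA of a 1-week mouse, of 36 arrays in all. Of these arrays 2 hold the BSG strain, which lacks beta-sarcoglycan, and 2 hold the GSG strain, which lacks another sarcoglycan. The labels give strain and age only, and no treatment. By the study's methods, 2 mice were taken per age and strain, so the 4 ratios rest on 4 mice of 2.5 weeks and 4 mice of 1 week. Every mouse in these ratios is deficient in a sarcoglycan at both ages. WT and MDX arrays are not analysed here, so that growth and disease cannot be told apart.

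Sarcoglycans are membrane proteins of the dystrophin-associated glycoprotein complex, which ties the cytoskeleton of the muscle fibre to the surrounding matrix. Between 1 and 2.5 weeks mice are still suckling. In this period limb muscle replaces fetal and neonatal protein isoforms by adult ones, fibres become fast or slow, the division of muscle precursors slows down, and the capacity for glycolysis and respiration grows. A group of imprinted genes, expressed from 1 parental allele and active in fetal growth, is shut down after birth in many mouse tissues.

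All values are log ratios of Cy5 over Cy3 and were read as log2 of 2.5 weeks over 1 week, so that a negative value means less RNA at 2.5 weeks. The values come without a stated direction or log base, and folds here rest on base 2. The direction is likely and not certain: of 11 measured genes listed for newborn muscle 10 lay below 0, and of 15 listed for mature muscle 13 lay above 0. The genes of this check include genes described below, such as Dlk1, so their signs are no result apart from this reading. In the study Dlk1 decreased strongly from 1 week, by arrays and by qPCR. If the ratios ran the other way, every sign would turn. The arrays give ratios and no levels, so the labelled tissue could not be checked against absolute amounts of muscle markers. A lower ratio in whole muscle can come from fewer cells of a type or from less RNA per cell, which cannot be told apart. The deleted genes give no check on the labels, since both channels of an array carry the same deletion. Sgcb, the gene for beta-sarcoglycan, had ratios of 0.70 and -0.12 in BSG and -0.27 and 0.35 in GSG.

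The mean of the 4 arrays was tested against 0 in a fit that shares 1 spread per oligonucleotide over all 36 arrays. An oligonucleotide was called when its p, adjusted by Benjamini-Hochberg over 8129 oligonucleotides, was under 0.05. By this test 300 were higher at 2.5 weeks (3.69%) and 130 were lower (1.60%), among them 270 genes (4.13% of 6541) and 116 genes (1.77%). All 4 arrays carry 2.5 weeks in Cy5 and no dye swap exists, so a label that binds some oligonucleotides better than others moves the mean by itself. Because each age occurs once in each channel around a closed loop of 9 arrays, this part can be estimated per oligonucleotide as a channel term, on the assumption that the term is the same on all arrays. The channel term was itself above 0 with an adjusted p under 0.05 for 1583 oligonucleotides (19.5%) and below 0 for 1353 (16.6%). With the term in the model 29 oligonucleotides were called higher (0.357%) and 49 lower (0.603%), or 26 genes (0.397%) and 43 genes (0.657%). Called by both were 29 higher and 41 lower, and none was called in opposite directions, though both estimates use the same 4 arrays. Of the 300 higher calls 280 had a called channel term of the same sign, and of the 130 lower calls 58 had one. The most negative means of the step, -2.19 and -1.77, belonged to 2 oligonucleotides with no gene symbol, which stood at 0.04 and 0.25 with the channel term. The genes below are therefore given with both estimates, first the mean and then the estimate with the channel term. As a base for counts of sign in gene lists, 3134 of all 6541 genes lay above 0 by the mean and 3246 with the channel term.

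Duplicate spots correlated at 0.584 to 0.713 on the 4 arrays, against -0.096 to 0.766 (median 0.525) on the 32 others. The median standard error of a 4-array mean was 0.134, and that of a strain mean 0.189. Array GSG replicate 1 had the lowest duplicate correlation of the 4 and the widest spread of ratios (SD 0.429). It also gave the most negative value for 70 of the 130 lower calls. Without it 73 of the 430 calls remained, 56 higher and 17 lower. Leaving out BSG replicate 1 kept 233, BSG replicate 2 kept 250 and GSG replicate 2 kept 155. Calls that remained in each of these 4 fits numbered 56, and 27 of these were also called with the channel term. These 27 include Dlk1, Ndn, Tmeff2 and Cma1 among 5 lower, and Pvalb, Tpm3, Lpin1, Srebf1, Cnn2, Arc, Per1, Adssl1, Gyg and Pde4dip among 22 higher. Where leaving out 1 array ended the call of a gene described below, that array is named beside it.

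Imprinted genes known from fetal growth were among the genes that fell. Dlk1 encodes a membrane protein of the Notch ligand family that holds back differentiation of fat and muscle precursors. Its log2 ratios were -2.22 and -1.19 in BSG and -1.25 and -0.97 in GSG, so that all 4 arrays lay well below 0. The mean was -1.41 ± 0.18 (SE of the fit, n = 4 arrays), a 2.65-fold lower level at 2.5 weeks (adjusted p = 0.000236), and with the channel term it was -1.43 (adjusted p = 7.53e-05). Meg3, a non-coding RNA from the other parental allele of the same chromosome 12 locus, gave -1.37 and -1.15 in BSG and -0.93 and -0.94 in GSG, and the 4 values spanned less than those of Dlk1. Its mean of -1.10 ± 0.24 (SE, adjusted p = 0.00941) stood at -1.25 with the channel term. Ndn, which encodes the growth suppressor necdin, read -1.22 and -0.97 in BSG and -1.15 and -0.71 in GSG, and all 4 arrays were again negative (mean -1.01 ± 0.20 SE, adjusted p = 0.00527).

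Mest, a hydrolase gene active in fetal mesoderm, had ratios of -0.62 and -1.31 in BSG and -1.53 and -0.96 in GSG, and Plagl1, a zinc finger factor that regulates other imprinted genes, had -0.13 and -1.23 in BSG and -1.41 and -0.82 in GSG. Both were negative on 4 arrays, with adjusted p of 0.0298 for Mest and 0.0124 for Plagl1. All 5 genes were also called with the channel term. Maged2, an X-linked gene of the same MAGE family as Ndn that was not on the imprinted list, gave -0.77 and -1.26 in BSG and -1.19 and -0.69 in GSG and was called by both. Of 25 measured imprinted genes 5 were called lower and 0 higher by either estimate, against the 1.77% and 0.657% of all genes given above. The rest stayed closer to 0, and the median of the list was -0.07, against -0.01 for all genes. H19 had a mean of -0.19 ± 0.28 (SE, adjusted p = 0.849), Cdkn1c -0.35 ± 0.28 (adjusted p = 0.613), Igf2 -0.13 ± 0.14 (adjusted p = 0.779) and Grb10 0.00096 ± 0.08 (adjusted p = 0.999). Leaving out single arrays moved Dlk1 between -1.55 and -1.14 and Ndn between -1.11 and -0.94, always with a call. Meg3 was not called without BSG replicate 1 or GSG replicate 1 (means of -1.15 to -1.01, adjusted p of 0.0509 to 0.0513). Mest was not called without BSG replicate 2, GSG replicate 1 or GSG replicate 2 (means of -1.15 to -0.96, adjusted p of 0.0824 to 0.188), Plagl1 was not called without BSG replicate 2 or GSG replicate 1 (means of -0.79 to -0.73, adjusted p of 0.053 to 0.139), and Maged2 was not called without BSG replicate 2, GSG replicate 1 or GSG replicate 2 (means of -1.07 to -0.88, adjusted p of 0.0513 to 0.123).

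The arrays that close the loops hold RNA of the same 1-week mice in Cy5 against 20 weeks in Cy3, so they show these mice in the opposite channel. There the means of 1 week over 20 weeks were 3.32 for Dlk1, 2.56 for Meg3, 2.48 for Mest, 2.35 for Ndn and 1.93 for Plagl1. In either channel the 1-week side thus carried more RNA of these 5 genes than the later age it was set against. At 4 weeks over 2.5 weeks Dlk1 read -0.55 and Ndn -0.62, whereas Meg3 read 0.07. H19 and Cdkn1c, which were not called between 1 and 2.5 weeks, also stood at 2.54 and 2.25 for 1 week over 20 weeks. These ratios share the 1-week or 2.5-week mice with the experiment and are no independent check.

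A promoter window is shown for Meg3 because it holds a cAMP response element, described in mice at the Meg3 promoter, and a TATA box. The window runs from 250 bases before to 50 bases after the annotated start on the plus strand, chr12:109540746-109541045 in GRCm38.p6 (RefSeq), the upstream one of 2 annotated starts. Capitals mark the cAMP response element TGACGTCA, which begins 57 bases before the start, the TATA box TATAAA read on both strands (the 2 matches overlap) and the CCAAT box CCAAT at 100 bases before the start.
Meg3: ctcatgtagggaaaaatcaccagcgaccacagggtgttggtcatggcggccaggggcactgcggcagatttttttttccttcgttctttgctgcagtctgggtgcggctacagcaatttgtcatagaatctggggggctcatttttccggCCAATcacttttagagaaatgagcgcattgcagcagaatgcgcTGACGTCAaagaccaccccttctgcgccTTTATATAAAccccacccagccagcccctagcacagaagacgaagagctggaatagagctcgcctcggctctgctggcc
Of 32851 RefSeq promoter windows of this length 1.79% held TGACGTCA on either strand, 13.6% held TATAAA and 37.4% held CCAAT. A match describes letters and not binding, and which start was used was not measured.

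**Figure D1:**
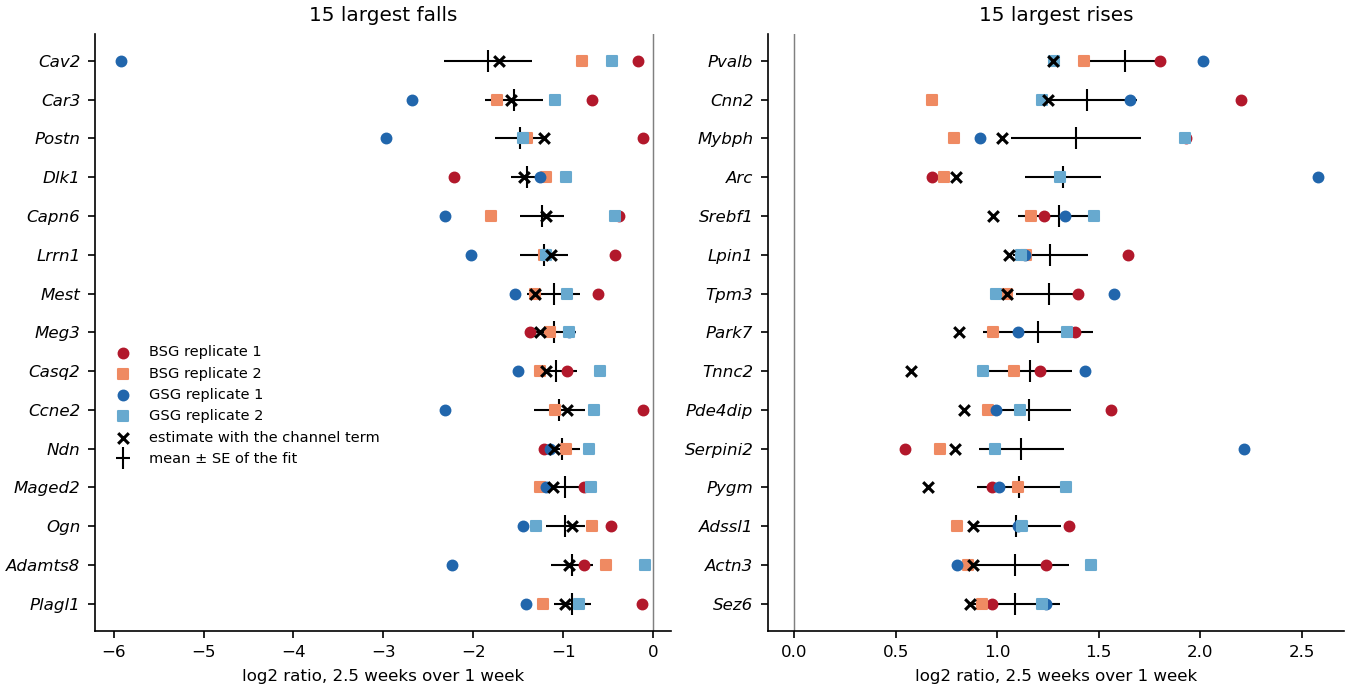
Log2 ratios of 2.5 weeks over 1 week on each of the 4 arrays for the 15 genes with the largest falls (left) and the 15 with the largest rises (right) among calls with the same sign on 4 arrays. Vertical ticks give the mean with the SE of the fit and crosses the estimate with the channel term. Circles of GSG replicate 1 lie far to the left of the other arrays for Cav2, Postn, Ccne2 and Adamts8, while the 4 arrays of Meg3 and Ndn lie close together.

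Several genes of the extracellular matrix fell as well. Postn, which encodes the matrix protein periostin made by fibroblasts, gave -0.11 and -1.41 in BSG and -2.97 and -1.44 in GSG (mean -1.48 ± 0.28 SE, adjusted p = 0.00395, with the channel term -1.22). The value of BSG replicate 1 was near 0 and that of GSG replicate 1 was the lowest. Ogn, a small leucine-rich proteoglycan, read -0.47 and -0.69 in BSG and -1.44 and -1.30 in GSG (mean -0.98 ± 0.22 SE, adjusted p = 0.0105). Thbs2, a thrombospondin that limits vessel growth, was tighter, with -0.47 and -0.59 in BSG and -0.66 and -0.48 in GSG (mean -0.55 ± 0.11 SE, adjusted p = 0.00646). All 3 were called with the channel term as well, where Fbln1 (-0.57) and Lama4 (-0.53) joined them. Of 27 measured matrix proteins other than collagens 3 were called lower by the mean (1.77% of all genes) and 5 with the channel term (0.657% of all genes), 0 were called higher, and 23 and 26 lay below 0. Their median was -0.30, or -0.42 with the channel term, and the array medians lay between -0.44 and -0.20. Of 18 collagens 2 were called lower by the mean, against 1.77% of all genes, Col14a1 (-0.74 ± 0.20 SE) and Col11a1 (-0.79 ± 0.22 SE), and only Col14a1 with the channel term. A second Col11a1 oligonucleotide read -0.03. The chains of the main fibrillar collagens were not called, with means of -0.20 ± 0.23 for Col1a1 and -0.11 ± 0.26 for Col3a1.

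Gpc3, a heparan sulphate proteoglycan at the cell surface that restrains growth, gave -0.71 and -0.48 in BSG and -0.95 and -0.56 in GSG and was called by both estimates (mean -0.68 ± 0.12 SE, adjusted p = 0.00391). Ptn, the heparin-binding growth factor pleiotrophin, gave -0.50 and -0.64 in BSG and -1.43 and -0.35 in GSG, with its lowest value on GSG replicate 1 (mean -0.73 ± 0.15 SE, adjusted p = 0.00743). Gpc3 was not called without GSG replicate 1 (-0.59, adjusted p = 0.0509), and Ptn was not called without GSG replicate 1 (-0.50, adjusted p = 0.101). Tmeff2, a transmembrane protein with follistatin domains, was even over the arrays, at -0.68 and -0.82 in BSG and -0.99 and -0.70 in GSG (mean -0.80 ± 0.11 SE, adjusted p = 0.000257). It kept its call without each single array, between -0.83 and -0.73. Igf1, the main postnatal growth factor of muscle, averaged -0.65 ± 0.17 (SE, adjusted p = 0.0228), but not with a call under the channel term (-0.49, adjusted p = 0.14). Postn was not called without GSG replicate 1 (-0.99, adjusted p = 0.101), Thbs2 was not called without GSG replicate 1 (-0.51, adjusted p = 0.0551), and Ogn was not called without GSG replicate 1 or GSG replicate 2 (means of -0.87 to -0.82, adjusted p of 0.0771 to 0.116). Col14a1 was not called without BSG replicate 2, GSG replicate 1 or GSG replicate 2 (means of -0.80 to -0.53, adjusted p of 0.0595 to 0.298), Col11a1 was not called without BSG replicate 2, GSG replicate 1 or GSG replicate 2 (means of -0.73 to -0.54, adjusted p of 0.157 to 0.195), and Igf1 was not called without BSG replicate 2, GSG replicate 1 or GSG replicate 2 (means of -0.70 to -0.49, adjusted p of 0.052 to 0.245).

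Several of the largest falls rested on GSG replicate 1. Tnfrsf11b, the gene for osteoprotegerin, a decoy receptor that blocks bone resorption, gave 0.11 and -1.36 in BSG and -4.20 and -0.87 in GSG (mean -1.58 ± 0.33 SE, adjusted p = 0.00755). It was not called without GSG replicate 1 (-0.71, adjusted p = 0.206). Cav2, which encodes a protein of membrane caveolae, gave -0.17 and -0.79 in BSG and -5.91 and -0.46 in GSG (mean -1.83 ± 0.49 SE, adjusted p = 0.0303), and was not called without GSG replicate 1 (-0.47, adjusted p = 0.678) or with the channel term (-1.71, adjusted p = 0.0702). Ccne2, a cyclin of the start of DNA replication, read -0.11 and -1.09 in BSG and -2.31 and -0.66 in GSG, and was not called without BSG replicate 2 or GSG replicate 1 (means of -1.03 to -0.62, adjusted p of 0.083 to 0.416) or with the channel term (-0.95, adjusted p = 0.0816). In each of these 3 genes the single lowest array lay more than 1 log2 unit under the next. Adamts8, a secreted protease, read -0.77 and -0.53 in BSG and -2.23 and -0.09 in GSG and was not called without BSG replicate 1 or GSG replicate 1 (means of -0.95 to -0.46, adjusted p of 0.0615 to 0.331). Capn6, a calpain expressed in embryonic muscle, gave -0.38 and -1.81 in BSG and -2.32 and -0.43 in GSG and was not called without GSG replicate 1 (-0.87, adjusted p = 0.0697). Lrrn1, a leucine-rich membrane protein, gave -0.43 and -1.22 in BSG and -2.02 and -1.19 in GSG and was not called without GSG replicate 1 (-0.94, adjusted p = 0.141). Each of these 6 genes stayed negative on the mean of the other 3 arrays, but the fall there was smaller by differing amounts. Without GSG replicate 1 the mean moved from -1.83 to -0.47 for Cav2, and only from -1.21 to -0.94 for Lrrn1. Capn6 was also low on BSG replicate 2 (-1.81).

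Most genes of fast and of slow fibres lay on opposite sides of 0. Pvalb, the calcium buffer parvalbumin that speeds relaxation in fast fibres of mice, was the largest named rise. It gave 1.80 and 1.43 in BSG and 2.01 and 1.28 in GSG, with all 4 values above 1. The mean was 1.63 ± 0.17 (SE of the fit, n = 4 arrays), or 3.09-fold higher at 2.5 weeks (adjusted p = 2.33e-05), and 1.28 with the channel term (adjusted p = 0.000119). Fast troponin C (Tnnc2) read 1.21 and 1.08 in BSG and 1.43 and 0.93 in GSG, fast troponin T (Tnnt3) 0.87 and 0.27 in BSG and 0.94 and 0.81 in GSG, and the fast calcium pump of the reticulum (Atp2a1) 1.12 and 0.56 in BSG and 1.10 and 0.99 in GSG. These 3 were positive on 4 arrays and were called by the mean (adjusted p = 0.00281, 0.00646 and 0.00385), but not with the channel term, where they stood at 0.57, 0.45 and 0.55 (adjusted p = 0.158, 0.119 and 0.101). Actn3, the alpha-actinin of fast fibres, averaged 1.09 ± 0.27 (SE) and Myoz1, a Z-disc protein of fast fibres, 0.86 ± 0.24 (SE), also called by the mean alone. Of 9 measured fast fibre genes 6 were called higher by the mean and 1 with the channel term, against 4.13% and 0.397% of all genes, and all 9 were above 0 by both estimates. The list had a median of 0.86, or 0.53 with the channel term, and array medians between 0.56 and 1.12. Of the sarcomeric myosin heavy chains on the lists none had an oligonucleotide assigned to it here. Tnnt3 was not called without GSG replicate 1 (0.65, adjusted p = 0.062), Actn3 was not called without BSG replicate 1, GSG replicate 1 or GSG replicate 2 (means of 0.97 to 1.19, adjusted p of 0.0602 to 0.108), and Myoz1 was not called when any 1 of the 4 arrays was left out (means of 0.79 to 0.93, adjusted p of 0.0685 to 0.165).

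Of 10 slow fibre genes 9 had means below 0, with a median of -0.53, or -0.71 with the channel term. Only Casq2, the cardiac and slow form of calsequestrin that stores calcium in the reticulum, was called lower, against 1.77% of all genes by the mean and 0.657% with the channel term. Its ratios were -0.96 and -1.26 in BSG and -1.51 and -0.59 in GSG (mean -1.08 ± 0.23 SE, adjusted p = 0.00933, with the channel term -1.19, adjusted p = 0.00788), and it was not called without GSG replicate 1 (-0.94, adjusted p = 0.0798). Tnni1, slow troponin I, read -0.65 and -0.84 in BSG and -1.75 and -0.31 in GSG (mean -0.89 ± 0.33 SE, adjusted p = 0.136), and Mb, the oxygen carrier myoglobin, -0.10 and 0.06 in BSG and -0.56 and -1.14 in GSG (mean -0.44 ± 0.15 SE, adjusted p = 0.0933). Tpm3, which encodes slow muscle tropomyosin and also tropomyosins of other cells, went the other way. Its values of 1.40 and 1.05 in BSG and 1.58 and 0.99 in GSG were all near or above 1 (mean 1.25 ± 0.16 SE, 2.38-fold, adjusted p = 0.000236, with the channel term 1.05, adjusted p = 0.000696). Tnni3, cardiac troponin I, also rose, with 1.70 and 0.69 in BSG and 1.05 and 0.86 in GSG (mean 1.07 ± 0.22 SE, adjusted p = 0.00755, with the channel term 0.89). It was not called without BSG replicate 1 or GSG replicate 1 (means of 0.87 to 1.08, adjusted p of 0.0508 to 0.0592). Troponins, tropomyosins and actinins are families of similar sequence, and how far a printed oligonucleotide distinguishes the members was not tested.

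The promoter window of Casq2 is shown for its match to the core of the MEF2 site, bound by a family of muscle transcription factors. It lies on the plus strand at chr3:102086165-102086464 in GRCm38.p6 (RefSeq), 250 bases before to 50 bases after the start. Capitals mark the reverse complement of TAAAAATA, whose first base is 68 bases before the start, and no other searched motif was found.
Casq2: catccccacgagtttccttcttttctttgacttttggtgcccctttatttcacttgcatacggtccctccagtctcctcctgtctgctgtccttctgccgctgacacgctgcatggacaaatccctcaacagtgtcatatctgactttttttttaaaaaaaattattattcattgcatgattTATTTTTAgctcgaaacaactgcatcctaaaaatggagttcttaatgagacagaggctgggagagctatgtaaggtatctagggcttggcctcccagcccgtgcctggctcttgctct
Among the 32851 windows 2.72% held TAAAAATA on either strand.

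Isoforms were also compared in pairs within protein families. Some of their genes, such as Casq2, Tnni1, Tnnt3 and Atp2a1, were described above, so the pairs are no separate evidence. Of 18 pairs listed, 13 had both members measured, and in 12 of them the form of mature or fast muscle had the higher ratio by the mean and likewise with the channel term. In 10 pairs it was higher on all 4 arrays. Neither member was called in the pairs of the elongation factor, creatine kinase, phosphoglycerate mutase, the cytochrome oxidase subunits and troponin I. For calsequestrin, the fast form Casq1 averaged 0.58 ± 0.39 (SE) and the slow form Casq2 -1.08 ± 0.23 (SE), a gap of 1.66 on the log2 scale, or 1.51 with the channel term. Casq1 itself ranged widely, with 1.97 and -0.50 in BSG and -0.36 and 1.20 in GSG, and was not called. For the calcium pump, Atp2a1 averaged 0.94 ± 0.17 and Atp2a2 -0.16 ± 0.28, and for troponin I, Tnni2 averaged 0.23 ± 0.19 and Tnni1 -0.89 ± 0.33. The adult acetylcholine receptor subunit Chrne read 0.61 ± 0.18 (SE, adjusted p = 0.0495) and the fetal subunit Chrng -0.02 ± 0.13, and Chrne was not called with the channel term (0.44, adjusted p = 0.247) or when any 1 of the 4 arrays was left out (means of 0.45 to 0.71, adjusted p of 0.0645 to 0.346). The muscle subunit of lactate dehydrogenase, Ldha, averaged 1.05 ± 0.22 and the heart subunit, Ldhb, 0.12 ± 0.23. The exception was the pair of insulin-like growth factors, in which postnatal Igf1 (-0.65 ± 0.17) lay under fetal Igf2 (-0.13 ± 0.14). No test was made of the count of pairs, and the difference between 2 oligonucleotides carries the channel term of both.

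**Figure D2:**
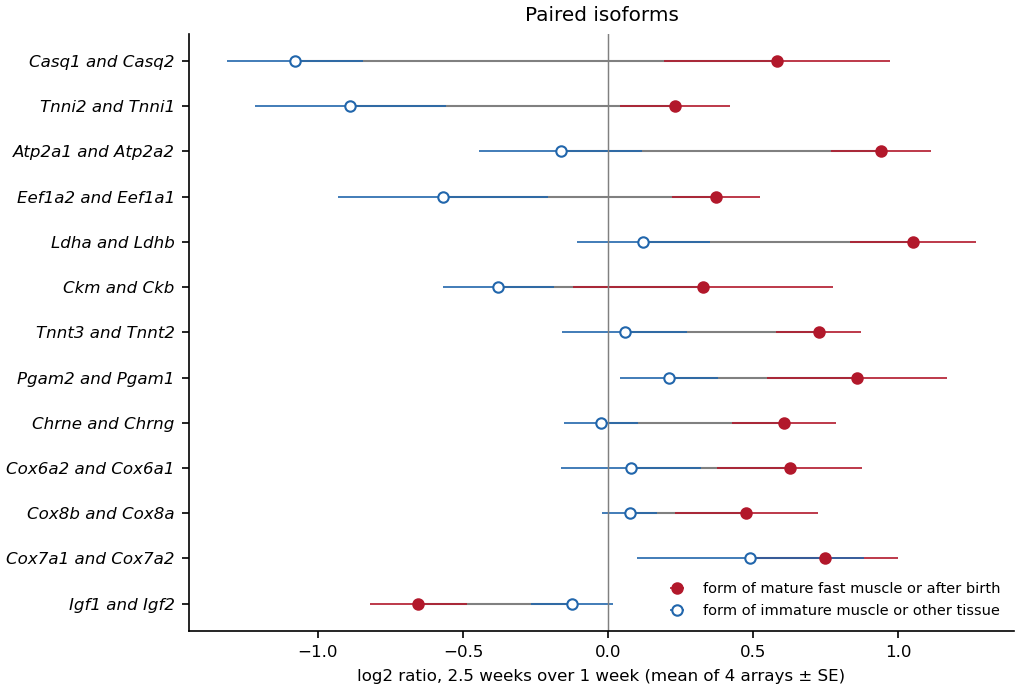
Mean log2 ratio of 2.5 weeks over 1 week for 13 isoform pairs, as filled red circles for the form of mature fast muscle or of later life and open blue circles for its partner, with the SE of the fit over 4 arrays. Red lies to the right of blue in 12 pairs, widest for Casq1 and Casq2, and the reverse holds for Igf1 and Igf2.

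Several enzymes of energy metabolism were higher by the mean. Of 20 genes of glycolysis and glycogen 7 were called higher, against 4.13% of all genes, and 0 lower, with a median of 0.32, and with the channel term none was called and the median was 0.28. Pygm, the glycogen phosphorylase of muscle, read 0.97 and 1.10 in BSG and 1.01 and 1.34 in GSG (mean 1.11 ± 0.20 SE, adjusted p = 0.00391, with the channel term 0.66, adjusted p = 0.0974). Ldha read 1.18 and 0.95 in BSG and 0.89 and 1.17 in GSG (adjusted p = 0.00755, with the channel term 0.70, adjusted p = 0.0995). Both were positive on 4 arrays by a similar amount. Gapdh, the gene to which the study scaled its qPCR, averaged 0.57 ± 0.16 over 80 pairs of control spots (SE, adjusted p = 0.0416) and stood at 0.26 with the channel term (adjusted p = 0.553). It was not called when any 1 of the 4 arrays was left out (means of 0.45 to 0.65, adjusted p of 0.0604 to 0.284). Gyg, glycogenin, the protein that primes glycogen, was not on that list and was called by both, with 1.49 and 0.73 in BSG and 0.69 and 0.80 in GSG (mean 0.93 ± 0.16 SE, adjusted p = 0.00227, with the channel term 0.65).

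Adssl1, the muscle enzyme that feeds the purine nucleotide cycle, was also called by both, at 1.35 and 0.80 in BSG and 1.10 and 1.12 in GSG (mean 1.09 ± 0.22 SE, adjusted p = 0.00663). Among 34 genes of the citric acid cycle and respiratory chain 4 were called higher, against 4.13% of all genes, 0 lower, and 29 lay above 0, with a median of 0.46. With the channel term none was called, 26 lay above 0 and the median was 0.20. The 4 called genes were Cox5a (0.91 ± 0.20 SE), Atp5b (0.61 ± 0.17 SE), Sucla2 (0.98 ± 0.28 SE) and Cycs (0.78 ± 0.22 SE). Cox5a was not called without BSG replicate 1 or GSG replicate 1 (means of 0.83 to 0.87, adjusted p of 0.0504 to 0.0694), and Atp5b was not called without BSG replicate 1, GSG replicate 1 or GSG replicate 2 (means of 0.47 to 0.63, adjusted p of 0.099 to 0.296). On BSG replicate 1 Sucla2 reached 2.04 and Cycs 1.74, the highest values of both genes. Sucla2 was not called without BSG replicate 1, GSG replicate 1 or GSG replicate 2 (means of 0.63 to 1.08, adjusted p of 0.0967 to 0.315), and Cycs was not called without BSG replicate 1, GSG replicate 1 or GSG replicate 2 (means of 0.47 to 0.89, adjusted p of 0.094 to 0.338). Idh2, the NADP-dependent isocitrate dehydrogenase of mitochondria, lay on the other side of 0 at -0.61 ± 0.21 (SE, adjusted p = 0.0984). Of 23 genes of fatty acid oxidation 3 were called higher by the mean, against 4.13% of all genes, Pnpla2, a triglyceride lipase (0.85 ± 0.17 SE), Crat (0.68 ± 0.16 SE) and Cpt2 (0.55 ± 0.16 SE), and none with the channel term. Pnpla2 kept its call without each array in turn, Crat was not called without BSG replicate 2, GSG replicate 1 or GSG replicate 2 (means of 0.61 to 0.65, adjusted p of 0.05 to 0.103), and Cpt2 was not called without BSG replicate 2, GSG replicate 1 or GSG replicate 2 (means of 0.45 to 0.52, adjusted p of 0.167 to 0.215).

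**Figure D3:**
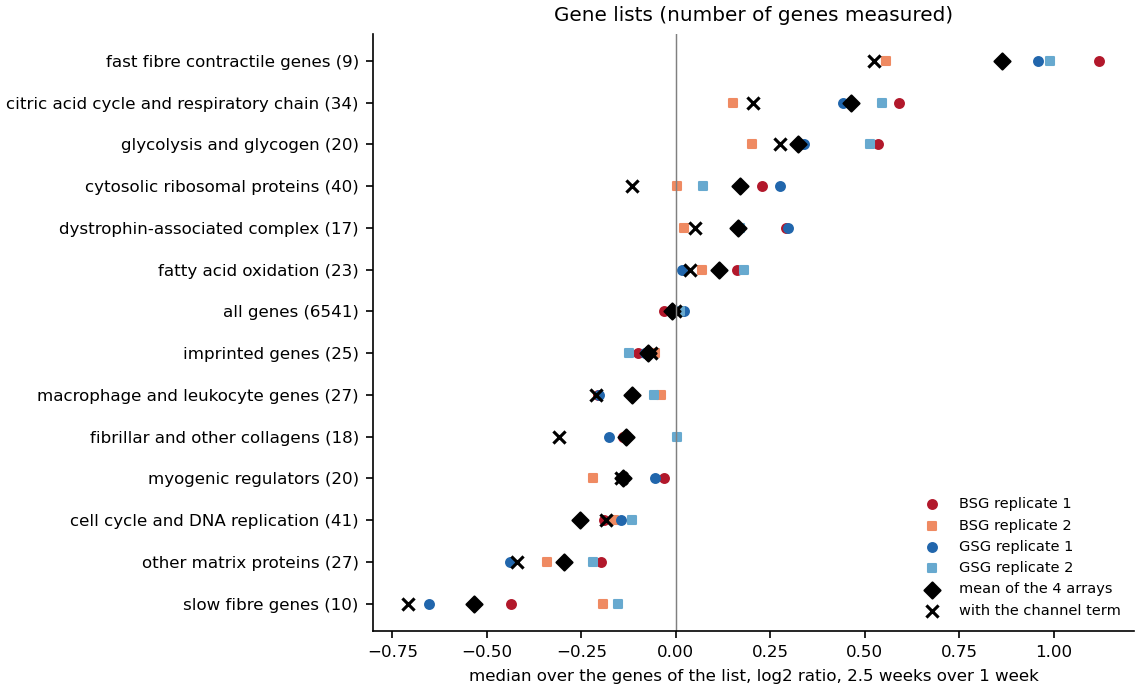
Median log2 ratio over the genes of 13 lists and over all 6541 genes, with the number of genes measured in brackets. Circles and squares give the 4 arrays, diamonds the mean of the arrays and crosses the estimate with the channel term. Fast fibre genes lie farthest to the right and slow fibre genes farthest to the left under both, while the median of ribosomal proteins changes sign, from 0.17 by the mean to -0.12 with the channel term.

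Regulators of lipid synthesis and of the response to hormones and time of day included rises that were even over the arrays. Lpin1, a phosphatidate phosphatase that also acts as a coactivator of fat oxidation genes, gave 1.65 and 1.14 in BSG and 1.14 and 1.12 in GSG (mean 1.26 ± 0.19 SE, 2.4-fold, adjusted p = 0.000513, with the channel term 1.06, adjusted p = 0.00267). Srebf1, the transcription factor that drives fatty acid synthesis, gave 1.23 and 1.17 in BSG and 1.33 and 1.48 in GSG (mean 1.30 ± 0.20 SE, adjusted p = 0.000816, with the channel term 0.98, adjusted p = 0.00824). In neither gene did any array fall under 1.1. Srebf1 was the only 1 of 12 genes of sterol and fatty acid synthesis to be called, against 4.13% of all genes called higher by the mean and 0.397% with the channel term. Fasn, fatty acid synthase, averaged -0.28 ± 0.11 (SE, adjusted p = 0.169). Cebpb, a factor of adipogenesis and glucocorticoid response, read 0.85 and 1.03 in BSG and 1.12 and 0.97 in GSG (mean 0.99 ± 0.20 SE, adjusted p = 0.00616, with the channel term 0.78), and was not called without GSG replicate 1 (0.95, adjusted p = 0.0509). Per1, a component of the circadian clock that glucocorticoids induce, read 0.92 and 1.11 in BSG and 0.97 and 0.74 in GSG (mean 0.94 ± 0.19 SE, 1.91-fold, adjusted p = 0.00607, with the channel term 0.88, adjusted p = 0.00963).

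Of 16 genes of the glucocorticoid and fasting response 4 were called higher by the mean, against 4.13% of all genes, Per1, Cebpb, Klf9 (0.92 ± 0.27 SE) and Foxo1 (0.46 ± 0.13 SE), and the first 2 of these with the channel term, against 0.397%. Klf9 was not called without BSG replicate 1, GSG replicate 1 or GSG replicate 2 (means of 0.66 to 0.95, adjusted p of 0.131 to 0.272), and Foxo1 was not called when any 1 of the 4 arrays was left out (means of 0.36 to 0.50, adjusted p of 0.0854 to 0.224). Other genes that glucocorticoids induce were not called, such as Fkbp5 (-0.22 ± 0.12 SE) and Tsc22d3 (0.44 ± 0.16 SE). Per1 was the only 1 of 14 clock genes to be called, against 4.13% of all genes called higher by the mean and 0.397% with the channel term. Dbp, a clock output gene, averaged 0.36 ± 0.16 (SE, adjusted p = 0.246) and Nr1d1, a repressor within the clock, -0.28 ± 0.12 (SE, adjusted p = 0.229). By the study's account mice of 1 strain and age were mostly littermates killed at the same time of day, which differed between ages, so that time of day and age cannot be told apart for Per1.

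The promoter of Per1 is shown because clock factors are known to act on it through E-boxes. The upstream one of 2 annotated windows lies on the plus strand at chr11:69098699-69098998 in GRCm38.p6 (RefSeq), again 250 bases before to 50 bases after the start. Capitals mark the E-box CACGTG at 166 bases before the start, CCAAT boxes on either strand at 221, 115 and 47 bases before it, and the GC box GGGCGG at 78 bases before it.
Per1: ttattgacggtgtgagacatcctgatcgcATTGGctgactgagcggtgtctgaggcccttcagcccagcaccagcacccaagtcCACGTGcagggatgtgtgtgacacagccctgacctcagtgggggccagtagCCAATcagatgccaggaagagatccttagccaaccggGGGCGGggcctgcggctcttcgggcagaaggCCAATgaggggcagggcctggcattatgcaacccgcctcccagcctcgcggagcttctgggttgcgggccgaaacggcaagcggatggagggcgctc
Of the 32851 windows 7.15% held CACGTG and 35.7% held GGGCGG on either strand.

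Other rises called by both came from varied functions. Cnn2, an actin-binding calponin of many cell types, gave 2.20 and 0.68 in BSG and 1.65 and 1.22 in GSG (mean 1.44 ± 0.25 SE, adjusted p = 0.00255, with the channel term 1.25). Arc, an immediate early gene known from neurons, gave 0.68 and 0.74 in BSG and 2.58 and 1.31 in GSG, with its highest value on GSG replicate 1 (mean 1.33 ± 0.19 SE, adjusted p = 0.000313, with the channel term 0.80). Pde4dip, myomegalin, gave 1.56 and 0.95 in BSG and 0.99 and 1.11 in GSG (mean 1.15 ± 0.21 SE, adjusted p = 0.00335), and its other oligonucleotide averaged 0.34, so the amounts differ. Timp4, an inhibitor of matrix proteases, averaged 0.87 ± 0.15 (SE), Hfe, a regulator of iron uptake, 0.78 ± 0.13 (SE), Bckdhb, a subunit of branched-chain amino acid breakdown, 0.87 ± 0.17 (SE), and Adh1, an alcohol dehydrogenase, 0.91 ± 0.16 (SE). Called by the mean alone were Mybph (1.39 ± 0.32 SE), a myosin-binding protein of fast muscle, Park7 (1.20 ± 0.27 SE), an antioxidant protein, and Serpini2 (1.12 ± 0.21 SE), a protease inhibitor. With the channel term these 3 stood at 1.02, 0.81 and 0.79 (adjusted p = 0.0995, 0.122 and 0.057). Mybph was not called without BSG replicate 1 or GSG replicate 2 (means of 1.21 to 1.21, adjusted p of 0.074 to 0.0876), Park7 was not called without BSG replicate 1, GSG replicate 1 or GSG replicate 2 (means of 1.14 to 1.24, adjusted p of 0.0504 to 0.0609), and Serpini2 was not called without GSG replicate 1 (0.75, adjusted p = 0.0957).

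Some components of the dystrophin-associated complex rose by the mean alone. Dmd, dystrophin, gave 0.55 and 0.72 in BSG and 0.83 and 0.95 in GSG for the oligonucleotide with the better duplicate spots (mean 0.76 ± 0.18 SE, adjusted p = 0.0159), while another Dmd oligonucleotide averaged -0.30. Sgcd, delta-sarcoglycan, gave 1.04 and 0.69 in BSG and 0.68 and 1.06 in GSG (mean 0.87 ± 0.21 SE, adjusted p = 0.0169), and Sgca, alpha-sarcoglycan, 0.62 and 0.60 in BSG and 0.84 and 0.88 in GSG (mean 0.74 ± 0.21 SE, adjusted p = 0.0451). With Capn3, a muscle calpain of the same list, 4 of 17 genes were called higher, against 4.13% of all genes, and 0 lower, and with the channel term none was called (0.40 for Dmd, 0.66 for Sgcd and 0.34 for Sgca, adjusted p = 0.32, 0.109 and 0.544). The medians of the list were 0.16 by the mean and 0.05 with the term. None of these 4 calls held over all fits with an array left out. Dmd was not called without GSG replicate 1 or GSG replicate 2 (means of 0.70 to 0.74, adjusted p of 0.091 to 0.095), Sgcd was not called without BSG replicate 1, GSG replicate 1 or GSG replicate 2 (means of 0.80 to 0.93, adjusted p of 0.0635 to 0.0934), Sgca was not called when any 1 of the 4 arrays was left out (means of 0.69 to 0.78, adjusted p of 0.09 to 0.191), and Capn3 was not called without BSG replicate 1, GSG replicate 1 or GSG replicate 2 (means of 0.46 to 0.66, adjusted p of 0.0847 to 0.179).

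Most genes on a list of cell division lay below 0. Of 41 genes of the cell cycle and DNA replication none was called lower, though some outside the list were, such as Ccne2 above, and 33 lay below 0 by the mean and 31 with the channel term, with medians of -0.25 and -0.19. Of all 6541 genes 3134 lay above 0 by the mean and 3246 with the channel term. Pola1, a subunit of DNA polymerase alpha, read -0.45 and -0.72 in BSG and -1.44 and -0.86 in GSG (mean -0.87 ± 0.28 SE, adjusted p = 0.0736). Cdk1, the kinase of mitosis, read -0.32 and -0.59 in BSG and -1.03 and -0.46 in GSG (mean -0.60 ± 0.21 SE, adjusted p = 0.113). In both genes GSG replicate 1 was the lowest, and neither was called. Rrm1, a subunit of ribonucleotide reductase, was the exception that was called higher by the mean (0.61 ± 0.12 SE, adjusted p = 0.00674), but not with the channel term (0.23, adjusted p = 0.458). Among 20 myogenic regulators Myod1, the determination factor of muscle precursors, was called higher by the mean (0.59 ± 0.17 SE, adjusted p = 0.0416), against 4.13% of all genes. It was not called with the channel term (0.41, adjusted p = 0.247) or when any 1 of the 4 arrays was left out (means of 0.50 to 0.64, adjusted p of 0.0854 to 0.218). Of 40 ribosomal protein genes none was called, 32 lay above 0 by the mean and 7 with the channel term, so their direction depends on that term.

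Few markers of other cells in the muscle were called. Only 3 of 8 defining markers were measured, Adipoq of fat cells, Cd68 of macrophages and Pecam1 of endothelium, with means between -0.05 and 0.07. Of 27 macrophage and leukocyte genes 2 were called by the mean and with the channel term, both lower and both genes of mast cells, against 1.77% and 0.657% of all genes. Cma1, a chymase of connective tissue mast cells, gave -0.62 and -0.73 in BSG and -1.12 and -0.58 in GSG (mean -0.76 ± 0.13 SE, adjusted p = 0.00222, with the channel term -0.78, adjusted p = 0.00267), and Cpa3, a carboxypeptidase of the same granules, -0.09 and -1.03 in BSG and -1.07 and -0.40 in GSG (mean -0.65 ± 0.17 SE, adjusted p = 0.0286). Cma1 kept its call without each array (-0.82 to -0.64), and Cpa3 was not called without BSG replicate 2, GSG replicate 1 or GSG replicate 2 (means of -0.73 to -0.51, adjusted p of 0.0505 to 0.229). The list's median was -0.12, or -0.21 with the channel term. None of 11 inflammation genes named by the study was called, and their median turned from 0.05 by the mean to -0.13 with the channel term.

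Car3, carbonic anhydrase 3, which is abundant in fat and in slow fibres, had one of the largest falls among named genes with the same sign on 4 arrays. Its ratios were -0.68 and -1.73 in BSG and -2.68 and -1.09 in GSG (mean -1.55 ± 0.32 SE, 2.92-fold lower, adjusted p = 0.00755, with the channel term -1.58, adjusted p = 0.00824), and it was not called without GSG replicate 1 (-1.17, adjusted p = 0.104). At 4 weeks over 2.5 weeks it stood at 0.77 and at 1 week over 20 weeks at -0.39, unlike the imprinted genes. It was the only called gene of 13 adipocyte genes, against 1.77% of all genes called lower by the mean and 0.657% with the channel term. The median of these 13 genes was 0.03, with array medians from -0.26 to 0.26. Ucp1, the uncoupling protein of brown fat, varied widely, at -0.23 and 2.76 in BSG and 0.90 and 1.47 in GSG, and was not called (adjusted p = 0.138). Matn1, a cartilage matrix protein, read 0.54 and 0.43 in BSG and 2.48 and 0.62 in GSG, so that GSG replicate 1 stood far above the rest (mean 1.02 ± 0.19 SE, adjusted p = 0.00404). It was not called without GSG replicate 1 (0.53, adjusted p = 0.091). Acan, the cartilage proteoglycan aggrecan, also had its highest ratio there, with -0.05 and 0.25 in BSG and 1.02 and -0.0097 in GSG, and was not called (adjusted p = 0.209). A second Acan oligonucleotide read 0.227 on GSG replicate 1. Of 13 genes of cartilage, bone, tendon and skin 2 were called higher, against 4.13% of all genes, Matn1 and Chad (0.77 ± 0.17 SE), with a list median of 0.15. Chad was not called without BSG replicate 1 or GSG replicate 1 (means of 0.59 to 0.76, adjusted p of 0.0656 to 0.0851). The part of cartilage or of other tissue in the values of GSG replicate 1 was not tested. No gene was called among 15 erythroid, 16 endothelial and 7 smooth muscle genes. Of 12 Schwann cell and nerve genes 1 was called lower, against 1.77% of all genes by the mean, the myelin protein Pmp22 (-0.60 ± 0.15 SE, adjusted p = 0.018). Pmp22 was not called without BSG replicate 2 or GSG replicate 1 (means of -0.49 to -0.47, adjusted p of 0.125 to 0.126).

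Apart from its inflammation genes, the study itself discussed 29 of the measured genes. Of these 6 were lower here and 1 higher by both estimates. Of all genes 1.77% were called lower and 4.13% higher by the mean, and 0.657% and 0.397% with the channel term. The 6 were Postn, Dlk1, Meg3, Casq2, Maged2 and Plagl1, and the 1 was Per1. These genes were chosen by the study partly on the same mice, which makes their count no independent evidence. By its pairwise temporal test over all ages the study lists Postn, Plagl1, Matn2 and Agtr2 as potential biomarkers of GSG. That comparison of whole time courses is not repeated by the single step here. Agtr2, an angiotensin receptor of fetal tissue, read -0.26 and -0.94 in BSG and -1.87 and -0.58 in GSG (mean -0.91 ± 0.30 SE, adjusted p = 0.0897), and Matn2, a matrix protein of regenerating muscle, 0.20 and -1.15 in BSG and -1.71 and -0.53 in GSG (mean -0.80 ± 0.24 SE, adjusted p = 0.0577). Tcap, telethonin of the Z-disc, read 0.91 and 0.07 in BSG and 0.77 and 0.69 in GSG (mean 0.61 ± 0.19 SE, adjusted p = 0.0699). None of the 3 was called, though the first was negative and the last positive on all 4 arrays.

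Within each strain the change was called for fewer oligonucleotides, with 2 arrays per strain. In BSG 9 were higher (0.111%) and 6 lower (0.0738%), and in GSG 54 were higher (0.664%) and 58 lower (0.713%). The GSG calls numbered 0 without GSG replicate 1 and 387 with array weights, and the BSG calls 2 without BSG replicate 1, 26 without BSG replicate 2 and 59 with array weights. All 15 BSG calls had the same sign in GSG, as had 99 of the 112 GSG calls in BSG. The later age was in the same channel in both strains, so a shared channel term moves both strain means the same way. Equal signs by themselves therefore cannot separate a shared change with age from a shared channel term. In both strains, with the same sign, 10 were called, among them Pvalb, Tpm3, Lpin1, Ank, Ei24, Dlk1 and Tmeff2. Dlk1 averaged -1.70 in BSG and -1.11 in GSG, Pvalb 1.61 in BSG and 1.65 in GSG, and Tpm3 1.22 in BSG and 1.28 in GSG. Other named BSG calls with large changes were Kcnmb4, a potassium channel subunit (-0.96 in BSG, -0.37 in GSG), and Prl4a1, a prolactin family gene, whose BSG mean of 1.84 came from 0.37 and 3.31. The mean of Kcnmb4 over both strains was not called without BSG replicate 1 (-0.50, adjusted p = 0.0992), and that of Prl4a1 was not called without BSG replicate 2 or GSG replicate 1 (means of 0.14 to 1.19, adjusted p of 0.0509 to 0.75). In GSG the largest falls were those of Cav2, Tnfrsf11b, Postn, Car3 and Skp2, all with their lowest value on replicate 1, and the largest rises those of Arc (1.94), Pvalb, Serpini2 (1.60), Matn1 (1.55) and Cnn2 (1.44).

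Tested directly, no oligonucleotide differed between the strains in its change from 1 to 2.5 weeks. By limma 0 were called, with a smallest adjusted p of 0.804, and 265 lay under 0.05 before adjustment. In the fit of the 4 arrays alone 0 were called as well, and 228 lay under 0.05 before adjustment. Both counts were below a share of 0.05 of the 8129 oligonucleotides. The 6 genes with the smallest p, none of which passed, were Myodysa, Reep3, Rcan2, Lsp1, Prl4a1 and Cdyl. Reep3, a protein of the endoplasmic reticulum, had 0.85 and -0.12 in BSG and -2.11 and -0.72 in GSG, a difference of 1.78 ± 0.40 (SE) between BSG and GSG (adjusted p = 0.804). Rcan2, a regulator of calcineurin, had 0.02 and 0.13 in BSG and 1.59 and 0.46 in GSG (difference -0.95 ± 0.23 SE). Lsp1, an actin-binding protein of leukocytes, had -0.48 and -0.07 in BSG and 1.72 and 0.02 in GSG (difference -1.15 ± 0.30 SE). In all 3 the value that stood apart was that of GSG replicate 1. Without GSG replicate 2, when that array alone represented the strain and was assumed to vary like the other groups, 46 differences were called, 40 of them with the lower value in BSG. Without BSG replicate 1 there was 1 such call. A p above the threshold with 2 arrays per strain does not show that the strains changed alike.

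The step from 1 to 2.5 weeks was then set against the mean of the 6 later steps that share no mouse with it (6 over 4 to 20 over 14 weeks, 24 arrays). Both sides carry the same channel term, since the later age was in Cy5 throughout. Here 8 oligonucleotides were higher (0.0984%) and 10 lower (0.123%), and all 18 were also called by the mean and with the channel term. These estimates share the 4 arrays of the step. The channel term also sets the step against the other steps of the loops, so the overlap of calls is no independent support. The named genes whose change lay below the mean of the later steps were Car3, Dlk1, Ndn, Cma1, Tmeff2, Lmo2, Gpc3, Runx1t1 and Thbs2. Not all of them fell on average over those later steps. Named genes that rose more than in the later steps were Pvalb, Cnn2, Tpm3, Lpin1, Srebf1 and Ank. Pvalb differed by 1.32 ± 0.19 (SE, adjusted p = 0.00203), Tmeff2 by -0.80 ± 0.12 (SE, adjusted p = 0.00203) and Dlk1 by -1.22 ± 0.19 (SE, adjusted p = 0.00571). Of these 15 genes Dlk1, Pvalb and Tmeff2 were called against the later steps in each of the 4 fits without an array. Without GSG replicate 1 the contrast gave 4 calls and without BSG replicate 2 it gave 6, while 26 were called without BSG replicate 1 and 35 without GSG replicate 2. For Car3 the difference of -1.78 ± 0.35 (SE) was larger than the step itself. Among them Lmo2, a transcriptional cofactor of blood and vessel development, gave -0.34 and -0.47 in BSG and -0.84 and -0.55 in GSG, and Runx1t1, a transcriptional corepressor, gave -0.39 and -0.45 in BSG and -1.14 and -0.46 in GSG. Their fall over the step was not called for Lmo2 without GSG replicate 1 (-0.46, adjusted p = 0.0817) and for Runx1t1 without GSG replicate 1 (-0.43, adjusted p = 0.062). Over whole steps of the loop, 430 oligonucleotides were called here, 20 at 4 over 2.5 weeks, 707 at 6 over 4 weeks and 2 to 12 at each of the 5 later ones. The 1-week over 20-week arrays gave 1065.

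**Figure D4:**
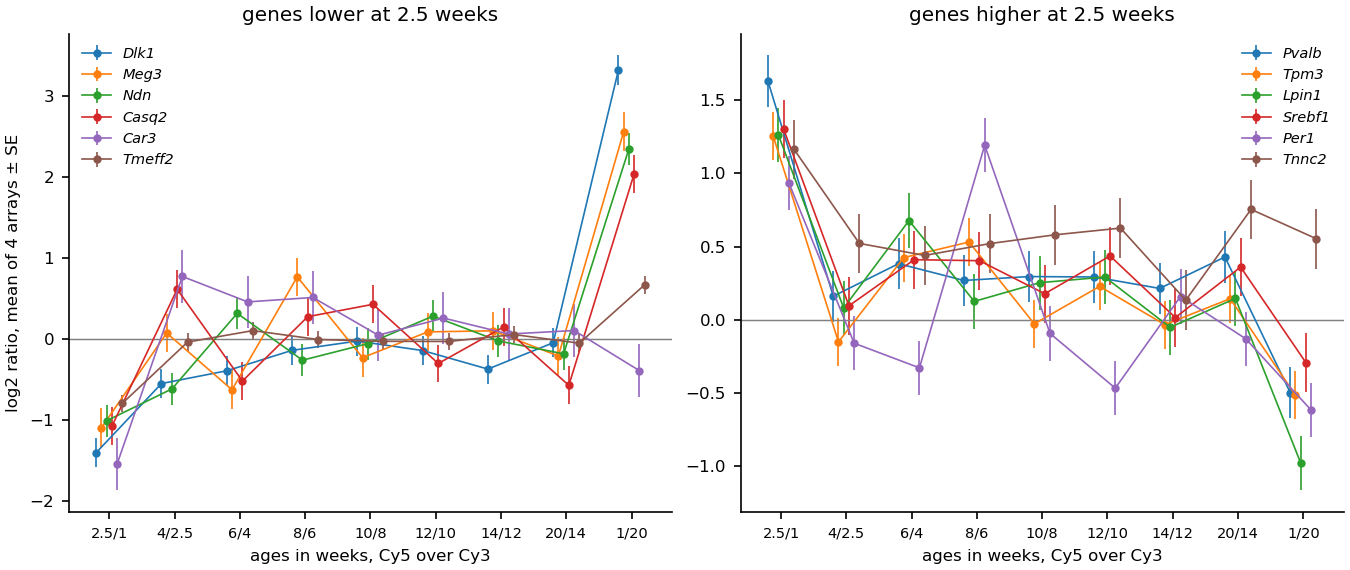
Mean log2 ratio of the 4 arrays at each of the 9 steps of the loop, with the SE of the fit, for 6 genes that were lower and 6 that were higher at 2.5 weeks, and ages in weeks as Cy5 over Cy3. Dlk1, Meg3, Ndn and Casq2 are lowest at 2.5 over 1 week and reach 2.04 to 3.32 at 1 over 20 weeks, where the channels of the 1-week mice are turned. Pvalb, Tpm3 and Lpin1 are highest at the step from 1 to 2.5 weeks, whereas Per1 reaches 1.19 at 8 over 6 weeks.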

How the data were processed

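The authors linearly amplified RNA of mouse quadriceps, coupled Cy3 and Cy5 to the cRNA and hybridised it to a printed library of long mouse oligonucleotides, each in duplicate spots. They quantified the arrays with GenePix and removed spatial, dye and between-array effects with the smida package in R. The deposited values are the resulting log ratios per spot, read here as log2 of Cy5 over Cy3; base and direction are not given in the sources used here. No intensity came with them, so no filter on dim spots was possible, and the number of arrays limits the precision.

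The 16416 spots formed 8208 pairs, which were averaged (80 pairs of a Gapdh control into 1), leaving 8129 oligonucleotides. Of these 6752 had 1 gene symbol (6541 genes), 7 had several and 1370 had none, and 6722 symbols were matched to RefSeq by gene ID. A gene with several oligonucleotides was represented by the one whose duplicate spots correlated best over the 32 other arrays. Limma 3.58.1 in R 4.3.3 fitted 18 means of strain and step to 36 arrays (18 residual and 4.98 prior degrees of freedom). Contrasts gave the mean of the 4 arrays, each strain, the difference of the strains, and the step minus 6 later steps. P-values were adjusted by Benjamini-Hochberg over all oligonucleotides. The fit with a channel term followed the study's linear model of ages within a closed loop, with 1 added term per oligonucleotide. Only the main fit was tested on simulated data, which held no channel effect. The fit with the channel term and the other alternatives were not tested in this way. The spread is that between mice of 1 strain and age, many of them littermates by the study's account.

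The genes named were up to 15 calls per direction with the largest mean and the same sign on 4 arrays, up to 4 genes per list with the smallest p, measured isoform pairs, up to 5 calls per strain and direction, the 6 smallest p of the strain difference, and genes the study discusses. Gpc3, Ptn, Timp4, Hfe, Bckdhb, Adh1, Ank, Ei24, Lmo2, Runx1t1, Fbln1, Lama4, Gapdh, Idh2 and Acan, where they fall outside this rule, were chosen after their values were seen. The experiment, the lists and the tests were chosen with earlier results of these data known. Alternatives were the 4 arrays alone, both loop models, centring, scaling, array weights, the loop as a random block, single spots, a filter on duplicate spots (r of 0.3 or more, 4240 oligonucleotides) and each array left out. WT and MDX arrays and qPCR are not analysed here. One item is not reported here.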

Additional observations from a re-analysis of the deposited data

Results flagged for a closer look

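For 207 named genes the 4 arrays were searched for a lone value whose gap to the next, divided by the range, exceeded Dixon's critical value, and 9 genes were found; chance alone marks about 1 in 20. GSG replicate 1 stood apart in 4 of these. Cav2, a caveola protein, read -5.91 there against -0.794 on the next array. Matn1, a cartilage matrix protein, read 2.48 there against 0.619. Agrn, the organiser of the endplate, read -0.788 against -0.355, and Slc25a20, the carnitine carrier of mitochondria, 0.0354 against 0.353. A second Agrn oligonucleotide read 0.509 on GSG replicate 1, with a mean of 0.171 over the 4 arrays. BSG replicate 1 stood apart in 3, at 1.65 against 1.14 for Lpin1, 1.49 against 0.80 for Gyg, and -0.263 against 0.129 for Masp1, a protease of the complement system. BSG replicate 2 stood apart in 2, at 3.31 against 0.37 for Prl4a1 and 0.153 against 0.733 for Cox6a2, a subunit of cytochrome oxidase.

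In 5 named genes both arrays of 1 strain moved one way and both arrays of the other strain the opposite way. None of these differences passed the test across all oligonucleotides. Cd55, an inhibitor of complement, differed by 0.909 on the log2 scale between BSG and GSG, Lsp1 by -1.15, Ldhb by -0.263, Il6, a cytokine, by -0.248, and Barhl1, a homeobox factor, by 0.12. A second Cd55 oligonucleotide gave a difference of -0.37.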

How the results depend on the processing

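No named call turned its sign under any alternative. The 430 calls of the mean became 34 in the linear model of the loops without a channel term, 78 with it, 146 from first spots alone and 687 with array weights. These weights were 1.24 on each of the 4 arrays and so did not treat GSG replicate 1 otherwise than the rest. The 15 calls in BSG became 0 in the 4 arrays alone (838 at an unadjusted p under 0.05), 1 in either loop model, 4 from first spots, 59 with array weights and 102 with scaled arrays. The 112 calls in GSG became 0 in the 4 arrays alone (1324 at an unadjusted p under 0.05), 8 and 49 in the loop models without and with the channel term, 14 from first spots, 57 with scaled arrays and 387 with array weights. The 18 calls against the later steps became 6 in the loop model without the channel term, 4 from first spots, 9 with the loop as a random block, 31 with array weights and 35 with scaled arrays. Leaving out 1 array gave 73 to 270 calls of the mean, 2 to 26 in BSG, 0 to 122 in GSG, 0 to 46 for the strain difference and 4 to 35 against the later steps. The cause of these shifts was not tested, apart from fewer arrays per mean when one is left out. Of 78 named calls 77 remained with centred arrays, 77 with scaled arrays, 53 in the 4 arrays alone, 40 from first spots, 61 from second spots and 21 in the loop model without the channel term. No contrast with the later steps exists in the 4 arrays alone. No paired analysis was possible because the step is itself a ratio within an array, so that each array already pairs its 2 mice; the replicate number marks the loop, whose estimated correlation was -0.0257.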
